A study of Mus musculus with 18 samples.

Results

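The 35 genes described here encode the proteins with which skeletal muscle takes up, activates, stores and oxidizes fatty acids, and they were chosen by name, as rows of a muscle RNA-seq table that holds 23420 genes. All 35 were found in the table and all 35 passed the filter on low values. Poly-A RNA was sequenced from hindlimb muscle of female C57BL/6J mice at 2 months (young, 2 m), 20 months (aged, 20 m) and 28 months (superaged, 28 m), with 3 mice per age and 1 library per mouse. The labels name no engineered allele and no treatment, and age is the one difference they give between the groups. For DNA from these muscles and from spleen T cells, methylated fragments were enriched on a methyl-CpG-binding protein domain and sequenced (MBD-seq), with 3 mice pooled per age. Whole hindlimb muscle holds fibres of several types together with fat, vessel, connective tissue and immune cells, and fewer cells of a type cannot be told apart from less RNA per cell. Values are read counts divided by 1 size factor per library (normalized counts).

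Fatty acids enter the muscle fibre with the help of transporters and binding proteins, are coupled to coenzyme A, and pass the mitochondrial membranes as carnitine esters. Inside the mitochondrion they are shortened step by step by beta-oxidation, and the electrons are handed to the respiratory chain through the electron transfer flavoprotein. Lipid droplets, coated by perilipins, hold the surplus as triglyceride. Much of this gene set is known to be under the control of the peroxisome proliferator-activated receptors (PPARs), which are themselves activated by fatty acids, and it is more active in oxidative than in glycolytic fibres.

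The libraries held 20203833 to 71115244 reads assigned to genes, and the 35 genes took 0.383% to 0.814% of them. No member had fewer than 134 reads in any library. Gene-wise correlations between libraries of an age ran from 0.9683 to 0.9871 (Pearson's r on the log2 scale, across genes), and no pair was close enough to be the same library deposited again. The 3 libraries numbered 3 stood apart in the summed normalized count of all genes (38131628 to 39602607, against 47840578 to 52950481 in the 6 others). They also had a smaller share in rows that name no gene (37.9% to 41.5%, against 44.0% to 47.7%). The 2-m library 2 stood apart in its fibre make-up, with a summed normalized count of 7 slow fibre markers of 115123, against 12890 and 28041 in the other 2-m libraries. It was also the highest 2-m library for 30 of the 35 members, and the 20-m library 2 was the lowest 20-m library for 33 of 35. The 20-m library 3 and the 28-m library 2 were each the highest of their age for 27 of 35. The muscle fibre genes used to check the tissue label were abundant in every library.

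At 20 months the genes of fatty acid use were higher than at 2 months far more often than lower. By limma across all 13178 tested genes, with adjusted p-values under 0.05, 12 of the 35 members rose (34.3%) and 0 fell, while over all tested genes 9.42% rose and 7.13% fell. At an unadjusted p under 0.05, 20 members differed, beside 31.5% of all tested genes. The members' median log2 fold change was 0.25 and that of all tested genes −0.02, and 31 of the 35 lay above 0. The largest rises were those of Ucp3, Acot2, Fabp3, Cd36 and Plin4. The count of rises rested in part on single libraries: it was 5 without 2-m library 1, 5 without 20-m library 1 and 6 without 20-m library 3, where 1 member fell, and it was 16 without 2-m library 2. Over all tested genes, 1242 rose in the main fit, and 839, 613, 990 and 1175 rose in these settings, in the same order. After scaling every library to the same sum over genes, 5 members rose (Ucp3, Acot2, Fabp3, Cd36 and Plin4), beside 354 over all tested genes. The other 7 calls of members were lost: Plin5 (adjusted p = 0.139), Hadhb (0.259), Etfdh (0.265), Cpt1a (0.266), Hadha (0.366), Acadm (0.467) and Acacb (0.468). Their log2 fold changes were no smaller under that scaling, from 0.32 for Acacb to 0.70 for Plin5. In the 6 libraries numbered 1 and 2 the count of members that rose was 2 (Ucp3 and Plin4), beside 695 over all tested genes. Among the members' calls that were lost there, adjusted p ran from 0.0519 for Hadhb to 0.326 for Plin5. In 9 of 21 other settings a member fell, Echs1 in 7 and Plin2 in 3.

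At 28 months most of these differences from 2 months were smaller. Only Cd36 rose and Echs1 fell by the same test, which is 2.86% of the members in each direction beside 7.53% and 6.24% of all tested genes, and 5 members had an unadjusted p under 0.05, beside 28.2% of all tested genes. The members' median log2 fold change was 0.06. Neither count held in every setting, with 4 members called with the replicate block or with a term for the libraries numbered 3 (2 rose and 2 fell in each), 3 by DESeq2, 0 members called by edgeR's quasi-likelihood test on the recovered reads and 0 without 2-m library 1, without 20-m library 1, or without 28-m library 1 or 3. The count was 1 without 2-m library 2, 2-m library 3 or 20-m library 2. Over all tested genes 1814 were called in the main fit. With the block, the term for the libraries numbered 3, DESeq2 and edgeR, 2529, 2423, 2125 and 1775 were called.

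Between 20 and 28 months, Ucp3 and Plin4 fell (5.71% of the members, beside 0.167% of all tested genes) and 0 members rose (0.212% of all genes). The median was −0.20, and 33 of the 35 members were lower at 28 months on this scale. The unadjusted p was under 0.05 for 14 members, beside 10.6% of all tested genes. Where a change of more than 2-fold was also required, 2 members were named at 20 months (5.17% of all tested genes), 0 at 28 months (5.14%) and 1 between these ages (1.31%). The calls were lost, with 0 members left, without 20-m library 1 or 3 and without 28-m library 1 or 3, and 1 member was left without 2-m library 1 or 28-m library 2. The 3 comparisons share libraries, so that a high 20-m value enters both the first and the third. In 9 of the 35 members (25.7%) all 3 of the 20-m libraries lay above the 6 others, which held for 3.61% of all tested genes, and in 0 members did they lie below (3.38% of all genes). With 3 libraries against 3, an exact permutation test of a single gene cannot give a two-sided p below 0.1, and the members whose groups did not overlap all stood at that value. The p-values of all tests rest on the spread between libraries of an age, with 1 library per mouse. In the main fit that spread also holds the difference between the libraries numbered 3 and the others.

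**Figure D1:**
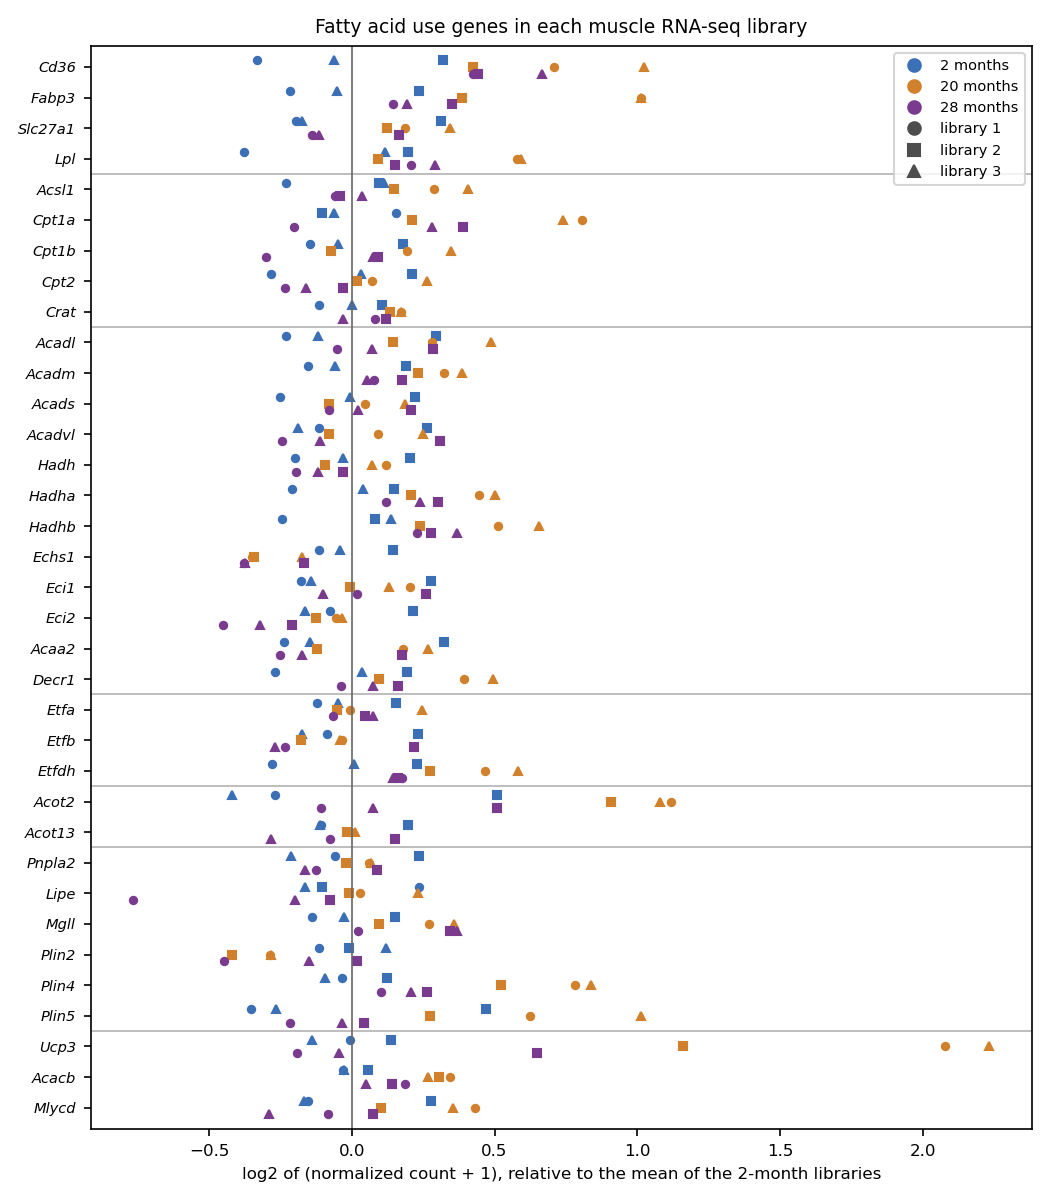
Level of each of the 35 members in each RNA-seq library, as log2 of the normalized count plus 1, relative to the mean of the 2-m libraries (x axis). Rows are genes in blocks by role (uptake, activation and carnitine shuttle, beta-oxidation, electron transfer, thioesterases, lipolysis and droplet, malonyl-CoA and uncoupling), colours are ages and shapes are library numbers; the 20-m points of Ucp3 lie farthest to the right, and the 2-m library 2 (blue squares) is the highest young library in 30 rows.

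The genes that handle fatty acids at the fibre surface and in the cytosol were the first group. Fabp3, which encodes the fatty acid-binding protein of heart and muscle, had normalized counts of 7239, 9909 and 8113 at 2 months, 17016, 10991 and 17014 at 20 months, and 9295, 10750 and 9620 at 28 months. All 20-m libraries lay above the 6 others, although the lowest of them was only 1.02 times the highest of the rest. The rise at 20 months was 0.82 ± 0.16 (log2 fold change ± SE, n = 3 per age, limma adjusted p = 0.00445), and the difference at 28 months was 0.24 ± 0.16 (limma adjusted p = 0.349). RefSeq places Zcchc17 on the opposite strand over 11.9% of the Fabp3 exon length, and the strand used in counting is not given in the sources used here.

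Cd36, the fatty acid translocase of the plasma membrane, was measured at 8396, 13191 and 10134 at 2 months. It stood at 17267, 14173 and 21488 at 20 months and at 14200, 14358 and 16775 at 28 months. Every library of either older age exceeded every young one. The log2 fold change was 0.74 ± 0.16 at 20 months (n = 3 per age, limma adjusted p = 0.00934) and 0.54 ± 0.16 at 28 months (limma adjusted p = 0.0471). The second of these was lost in 11 of 21 other settings, among them leaving out 2-m library 1 (adjusted p = 0.180), 2-m library 3 (0.0982), 20-m library 1 (0.0701), or any of the 28-m libraries 1, 2 and 3 (0.0920, 0.0710 and 0.156). The promoter of Cd36 is shown because it is the only called uptake gene with a match to the PPAR-type element described further on. It covers 250 bases before to 50 bases after a RefSeq start on the minus strand of GRCm38.p6 (chr5:17835847-17836146), with the match in capitals. This start lies inside the annotated span of the gene (chr5:17781690-17888959).
Cd36: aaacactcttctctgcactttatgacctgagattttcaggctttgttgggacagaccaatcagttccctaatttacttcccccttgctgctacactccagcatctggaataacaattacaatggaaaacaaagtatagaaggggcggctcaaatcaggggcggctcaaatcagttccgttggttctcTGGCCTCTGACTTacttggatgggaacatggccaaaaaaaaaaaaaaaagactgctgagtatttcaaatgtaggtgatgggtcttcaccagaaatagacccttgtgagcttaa

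Slc27a1, a transporter that also activates fatty acids, ranged from 3005 to 4279 at 2 months, 3747 to 4366 at 20 months and 3127 to 3859 at 28 months. Lpl, the lipoprotein lipase that frees fatty acids from circulating triglyceride, ranged from 21609 to 32195, 29882 to 42288 and 31172 to 34340 in the same order. For both genes the groups overlapped, and the adjusted p at 20 months was 0.240 for Slc27a1 and 0.0716 for Lpl (limma). Lpl had a log2 fold change of 0.44 ± 0.16 at 20 months. Per kilobase of exon, Fabp3 was the most abundant of all 35 members at each age (12383, 22069 and 14541 normalized counts per kb at 2, 20 and 28 months), followed at 2 months by Lpl (6933).

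Of the 5 genes of activation and the carnitine shuttle, 1 rose at 20 months and none was called at 28 months. Cpt1a, the carnitine palmitoyltransferase typical of liver, had normalized counts of 370, 308 and 318 at 2 months, 581, 385 and 555 at 20 months, and 288, 435 and 404 at 28 months. The 20-m libraries were above the 2-m ones but not above the 28-m ones, and the log2 fold change was 0.59 ± 0.19 (n = 3 per age, limma adjusted p = 0.0469). This call was lost without any of 6 libraries, with the highest adjusted p, 0.181, without 20-m library 1. The others were 2-m libraries 1, 2 and 3 (adjusted p = 0.0620, 0.101 and 0.102), 20-m library 3 (0.134) and 28-m library 3 (0.0563). Cpt1a was also lost without the filter on low values (limma adjusted p = 0.0622) and in a fit of only the 6 libraries compared (0.0510).

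Acsl1, the main long-chain acyl-CoA synthetase of muscle, ranged from 10260 to 12993 at 2 months, 13311 to 15946 at 20 months and 11555 to 12339 at 28 months. All 20-m libraries exceeded the 6 others, but the log2 fold change of 0.29 ± 0.10 did not pass the test (limma adjusted p = 0.0678). Crat, the carnitine acetyltransferase, showed the same ordering on a smaller scale, with 15379 to 17902, 18258 to 18776 and 16275 to 18091, and a log2 fold change of 0.16 ± 0.08 (adjusted p = 0.184). Cpt2, the inner membrane partner of CPT1, had log2 fold changes of 0.13 at 20 months and −0.13 at 28 months, neither past the threshold. Cpt1b, the muscle form of CPT1, had 0.16 and −0.04. The level of Cpt1b is uncertain, because 94.8% of its exon length is shared in RefSeq with the read-through gene Gm44502 on the same strand, and reads that fit both may be left out in counting. Its measured level at 2 months was 275 normalized counts per kb of exon, and that of Cpt1a, the lowest of the members, was 77.2.

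The 12 enzymes of beta-oxidation divided into a few that rose and a majority that did not pass the test. Hadha and Hadhb encode the subunits of the mitochondrial trifunctional protein, which carries out the last steps on long chains. Hadha had normalized counts of 12575, 16125 and 14929 at 2 months, 19802, 16802 and 20612 at 20 months, and 15803, 17916 and 17147 at 28 months. Hadhb stood at 7077, 8855 and 9213, then 11956, 9901 and 13203, then 9826, 10147 and 10828. For both genes each 20-m library lay above each 2-m library, and the 28-m libraries lay between or overlapped.

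The log2 fold change at 20 months was 0.39 ± 0.11 for Hadha (limma adjusted p = 0.0249) and 0.48 ± 0.12 for Hadhb (limma adjusted p = 0.0155). At 28 months it was 0.23 ± 0.11 (adjusted p = 0.184) and 0.30 ± 0.12 (adjusted p = 0.111). Both rises at 20 months were lost without 2-m library 1, 20-m library 1 or 20-m library 3, with adjusted p of 0.101, 0.10 and 0.0818 for Hadha and 0.0630, 0.0663 and 0.0574 for Hadhb. That of Hadha was also lost after quantile normalization (limma adjusted p = 0.0723). The genes lie head to head on chromosome 5, with start sites 273 bases apart (30154980 for Hadha on the minus strand and 30155253 for Hadhb on the plus strand, GRCm38.p6), so that their promoter windows share 228 bases. The window of Hadhb (chr5:30155003-30155302) is shown because it holds most of the stretch between these starts. The shared bases are the first 228 of the line.
Hadhb: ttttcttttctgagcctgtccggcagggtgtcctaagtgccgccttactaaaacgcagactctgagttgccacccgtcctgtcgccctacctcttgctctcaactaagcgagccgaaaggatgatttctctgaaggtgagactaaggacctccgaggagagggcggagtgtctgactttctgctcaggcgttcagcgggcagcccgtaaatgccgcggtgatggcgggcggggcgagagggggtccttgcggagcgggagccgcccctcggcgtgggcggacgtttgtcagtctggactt

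Acadm, the medium-chain acyl-CoA dehydrogenase, had normalized counts of 10043, 12762 and 10737 at 2 months, 13977, 13120 and 14607 at 20 months, and 11794, 12642 and 11611 at 28 months. All 20-m libraries lay above the 6 others, with a rise of 0.32 ± 0.09 (limma adjusted p = 0.0329). The call did not survive the removal of 2-m library 1 or 3 or of any 20-m library (adjusted p = 0.126, 0.0835, 0.105, 0.0549 and 0.0960). It was also lost after quantile normalization (limma adjusted p = 0.0931) and in a fit of only the 6 libraries compared (0.0580). The other acyl-CoA dehydrogenases, which act on other chain lengths, were not called: the log2 fold change at 20 months was 0.32 for Acadl (adjusted p = 0.124), 0.06 for Acads (0.756) and 0.10 for Acadvl (0.682). Decr1, the reductase for polyunsaturated chains, had 0.34 ± 0.12 (adjusted p = 0.0803).

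Echs1, the short-chain enoyl-CoA hydratase of the second step, moved the other way. It stood at 4491, 5375 and 4732 at 2 months, 3820, 3833 and 4312 at 20 months, and 3742, 4331 and 3754 at 28 months. Every young library lay above every older one. Echs1 fell by 0.30 on the log2 scale at 28 months (SE 0.09, limma adjusted p = 0.0458). At 20 months the log2 fold change was −0.29 ± 0.09, just outside the threshold (limma adjusted p = 0.0516). The call at 28 months was lost without 7 of the 9 libraries, taken one at a time: 2-m libraries 1, 2 and 3 (adjusted p = 0.0504, 0.139 and 0.0722), 20-m libraries 1 and 2 (0.0673 and 0.0634), and 28-m libraries 1 and 3 (0.154 and 0.142).

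Eci2, an isomerase for unsaturated chains, was lower at 28 months without overlap (1761 to 2083, against 2152 to 2793 at 2 months), with a log2 fold change of −0.32 ± 0.10 (limma adjusted p = 0.0557). Its relative Eci1 had 0.07 in that comparison. Hadh, the short-chain hydroxyacyl-CoA dehydrogenase, had log2 fold changes of 0.04 at 20 months and −0.11 at 28 months. Acaa2, the thiolase of the last step, had 0.13 and −0.06. For Eci1, Hadh and Acaa2 the young and older libraries overlapped at both ages. Within the enzymes of this group, the level per kilobase at 2 months ran from 1261 for Acads to 6011 for Acadvl.

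Electrons from the dehydrogenases pass through the flavoprotein subunits Etfa and Etfb to its oxidoreductase Etfdh. Etfdh had normalized counts of 4181, 5937 and 5098 at 2 months, 7015, 6130 and 7586 at 20 months, and 5721, 5675 and 5605 at 28 months. The 20-m libraries lay above the 6 others, and the rise was 0.46 ± 0.12 (limma adjusted p = 0.0182). It was lost without 2-m library 1, 20-m library 1 or 20-m library 3 (adjusted p = 0.0681, 0.0705 and 0.0652). Etfa and Etfb, by contrast, had log2 fold changes of 0.07 and −0.07 at 20 months and 0.02 and −0.09 at 28 months, with overlapping groups. Per kilobase, both subunits exceeded Etfdh at 2 months (5242 and 6734, against 2224).

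Of the thioesterases, which release free fatty acids from coenzyme A, the mitochondrial Acot2 rose and Acot13 did not pass the test. Acot2 had normalized counts of 299, 513 and 269 at 2 months, 783, 677 and 762 at 20 months, and 334, 512 and 379 at 28 months. The lowest 20-m library was 1.32 times the highest of the 6 others. Its log2 fold change at 20 months was 1.10 ± 0.22 (2.14-fold, limma adjusted p = 0.00526), at 28 months 0.22 ± 0.22 (adjusted p = 0.557), and from 20 to 28 months −0.88 ± 0.22 (adjusted p = 0.130). The rise at 20 months passed without each library in turn. Acot13 stayed between 1672 and 2337 in all 9 libraries. Acot1, a close relative on the same chromosome whose reads may be shared, was counted at only 24.7 to 59.9 per library. The promoter of Acot2 (chr12:83987611-83987910, plus strand, GRCm38.p6) is shown because this gene had one of the largest rises, and it held no match to the elements searched.
Acot2: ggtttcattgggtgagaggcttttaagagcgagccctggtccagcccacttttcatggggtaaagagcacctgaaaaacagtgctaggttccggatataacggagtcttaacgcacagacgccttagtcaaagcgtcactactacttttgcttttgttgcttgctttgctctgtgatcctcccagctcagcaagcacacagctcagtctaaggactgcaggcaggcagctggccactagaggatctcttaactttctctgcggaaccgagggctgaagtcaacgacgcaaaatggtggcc

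Among the 6 genes of lipolysis and the lipid droplet, the droplet coat proteins gave the calls. Plin4 had normalized counts of 5960, 6642 and 5710 at 2 months, 10502, 8759 and 10909 at 20 months, and 6554, 7317 and 7051 at 28 months. No 20-m library came closer than 1.20 times the highest of the 6 others. Plin4 rose by 0.72 ± 0.09 at 20 months (limma adjusted p = 0.000372) and fell by 0.52 on the log2 scale from 20 to 28 months (SE 0.09, limma adjusted p = 0.0345). The difference between 28 and 2 months was 0.19 ± 0.09 (adjusted p = 0.203). The rise passed under all 21 other settings tried. The fall from 20 to 28 months was lost without 2-m library 1 (adjusted p = 0.0527), 20-m library 1 (0.189) or 3 (0.126), and 28-m library 1 (0.128), 2 (0.0694) or 3 (0.143). It was also lost after scaling to the same sum (log2 fold change −0.50, adjusted p = 1), after quantile normalization (−0.47, 0.0829) and in the 6 libraries numbered 1 and 2 (−0.47, 0.273).

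Plin5, which ties droplets to mitochondria in oxidative tissue, lies next to Plin4 on chromosome 17, with 1.648 kb between the genes. It stood at 528, 936 and 562 at 2 months, 1042, 817 and 1363 at 20 months, and 581, 695 and 659 at 28 months. The 2-m library 2 overlapped the 20-m libraries, and the log2 fold change was 0.69 ± 0.21 (limma adjusted p = 0.0433). The call for Plin5 was lost in 12 of 21 other settings, including the removal of 2-m library 1 (adjusted p = 0.152) or 3 (0.120), of 20-m library 1 (0.113) or 3 (0.148), and of 28-m library 1 (0.0529), 2 (0.0550) or 3 (0.0562). Plin2, the widespread droplet coat protein, was the member with the most negative log2 fold change at 20 months: 822 to 903 at 20 months, against 1014 to 1195 at 2 months, −0.33 ± 0.12 (adjusted p = 0.0796). At 28 months it overlapped the young libraries (806 to 1113).

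The promoter of Plin4 (chr17:56109733-56110032, minus strand, GRCm38.p6) is shown because Plin4 was called in 2 comparisons, and no searched element was found in it.
Plin4: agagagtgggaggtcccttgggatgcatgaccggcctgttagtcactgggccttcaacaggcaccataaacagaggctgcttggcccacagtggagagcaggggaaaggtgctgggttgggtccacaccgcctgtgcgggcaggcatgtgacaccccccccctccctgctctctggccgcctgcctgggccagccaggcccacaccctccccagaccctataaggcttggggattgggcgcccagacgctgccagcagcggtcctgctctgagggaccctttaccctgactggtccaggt

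The lipases were measured alongside. Pnpla2 (adipose triglyceride lipase) ranged from 8718 to 11900 over the 9 libraries, with log2 fold changes of 0.05 and −0.05 at 20 and 28 months. Lipe (hormone-sensitive lipase) had 0.09 and −0.34 ± 0.17 (adjusted p = 0.210 at 28 months), and 24.7% of its exon length is shared with an opposite-strand gene. Mgll (monoglyceride lipase) had 0.25 ± 0.11 at each of the older ages (adjusted p = 0.156 and 0.168). None of these lipases was called in any comparison.

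Ucp3, a mitochondrial carrier whose expression is known to follow the supply of fatty acids, showed the largest change of all members. Its normalized counts were 1340, 1480 and 1221 at 2 months, 5688, 3013 and 6338 at 20 months, and 1178, 2112 and 1304 at 28 months. The lowest 20-m library was 1.43 times the highest of the 6 others. Ucp3 rose 3.55-fold at 20 months (log2 fold change 1.83 ± 0.25, limma adjusted p = 0.000496) and fell by 1.69 on the log2 scale from 20 to 28 months (SE 0.25, limma adjusted p = 0.0114). At 28 months it was 0.14 ± 0.25 from the young level (adjusted p = 0.760). The rise passed in all 21 other settings, whereas the later fall was lost without 20-m library 1 (adjusted p = 0.0834) or 3 (0.0589), 28-m library 1 (0.0623) or 3 (0.0708), and in the 6 libraries numbered 1 and 2. Ucp3 stood at rank 29 of 35 per kilobase of exon at 2 months, with 550 normalized counts per kb, and reached 2048 at 20 months.

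The promoter of Ucp3 (chr7:100472741-100473040, plus strand, GRCm38.p6) is shown because Ucp3 had the largest change and carries a match to the PPAR-type element, 51 bases before the start, at chr7:100472940-100472952. The match is in capitals.
Ucp3: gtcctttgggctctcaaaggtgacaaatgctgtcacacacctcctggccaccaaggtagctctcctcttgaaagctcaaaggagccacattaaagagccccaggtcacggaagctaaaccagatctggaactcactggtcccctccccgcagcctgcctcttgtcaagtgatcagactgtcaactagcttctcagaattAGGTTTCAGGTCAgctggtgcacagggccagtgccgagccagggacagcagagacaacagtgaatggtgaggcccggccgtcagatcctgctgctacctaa

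Acacb and Mlycd make and remove malonyl-CoA, the inhibitor of CPT1. Acacb, the mitochondrial acetyl-CoA carboxylase, had normalized counts of 16975, 18025 and 17016 at 2 months, 22021, 21444 and 20836 at 20 months, and 19707, 19126 and 17951 at 28 months. The replicates were tight, and all 20-m libraries lay above the 6 others. Acacb rose by 0.31 ± 0.07 at 20 months (limma adjusted p = 0.0138), a call lost without 2-m library 1 (0.0510) or 20-m library 1 (0.0704). Mlycd, the decarboxylase that acts in the opposite direction, had a similar log2 fold change with a wider error, 0.31 ± 0.13, which did not pass the test (adjusted p = 0.131).

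**Figure D2:**
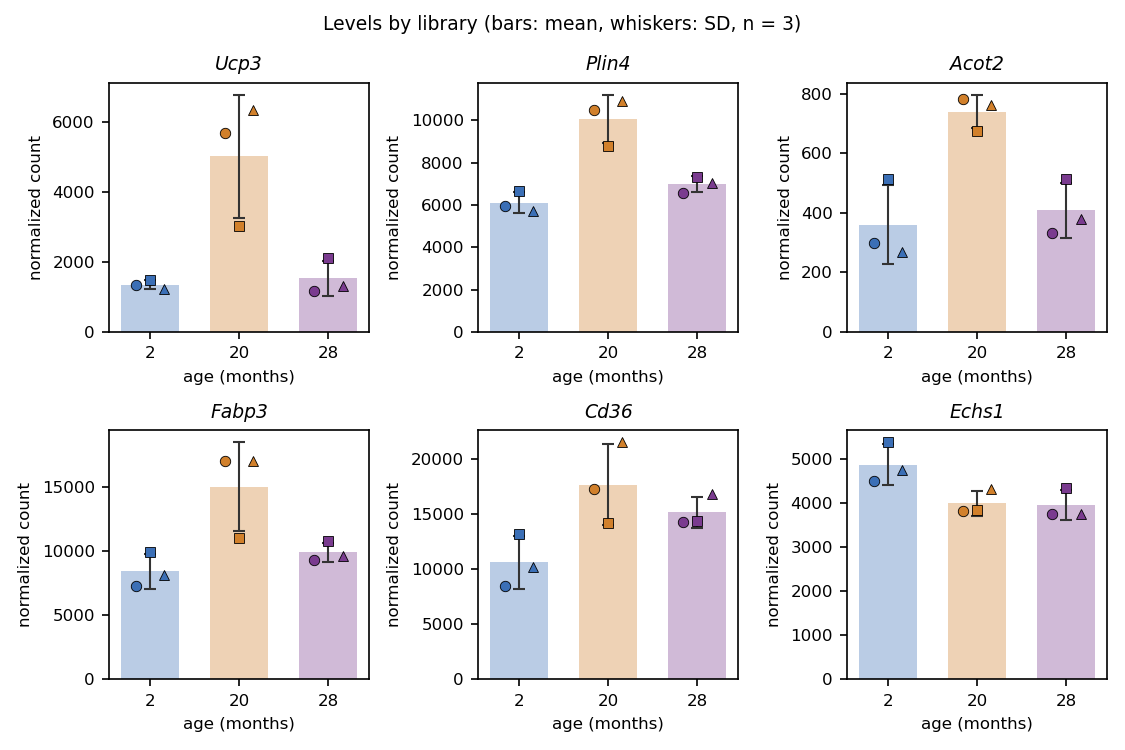
Normalized counts (y axis, linear, from 0) of Ucp3, Plin4, Acot2, Fabp3, Cd36 and Echs1 by age (x axis, months). Bars are means, whiskers SD over 3 libraries, and circles, squares and triangles are libraries 1, 2 and 3; the 20-m libraries lie above all others for Ucp3, Plin4, Acot2 and Fabp3, both older ages lie above 2 months for Cd36, and both lie below it for Echs1.

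**Figure D3:**
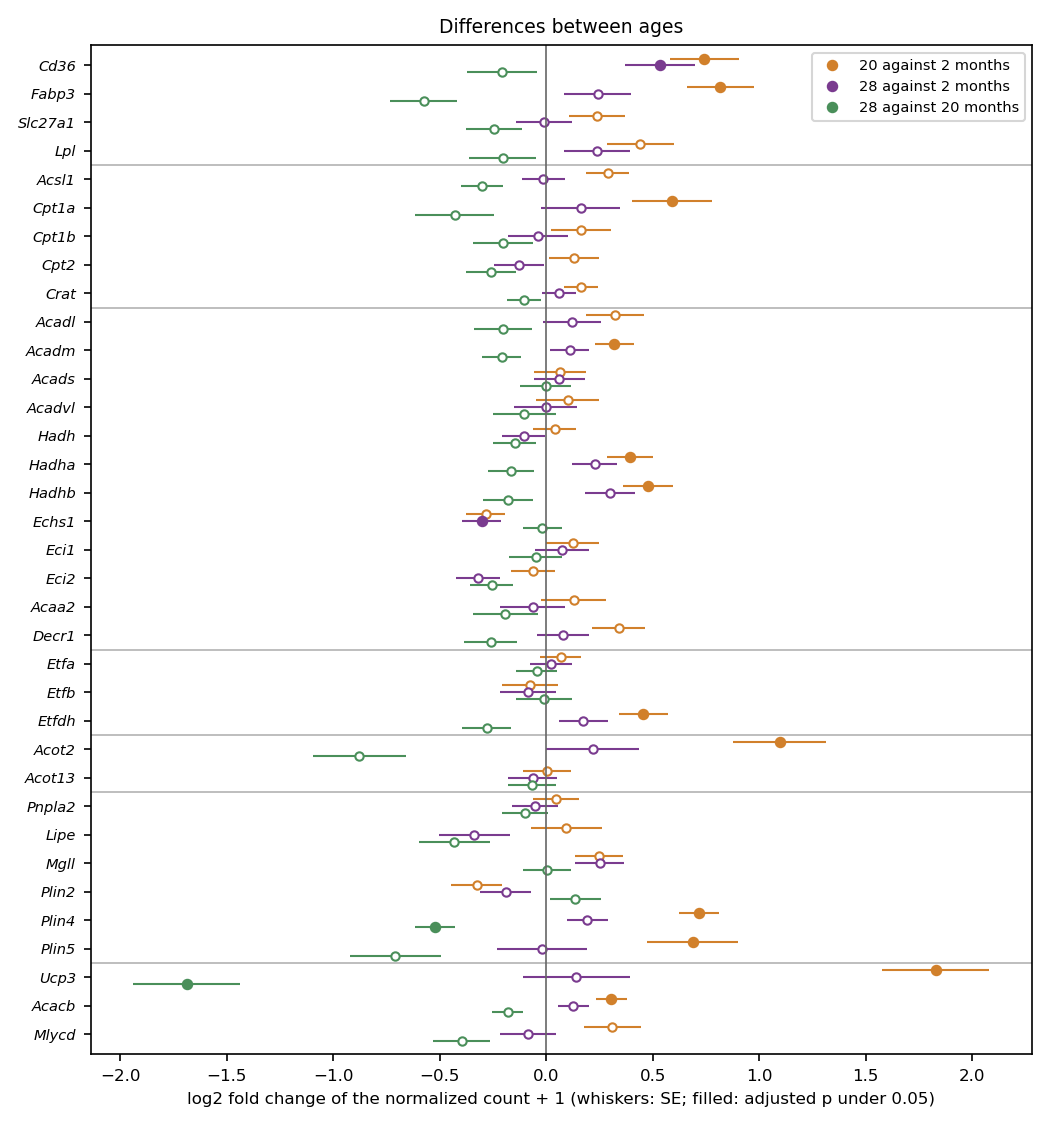
Log2 fold change of the normalized count plus 1 (x axis) for the 35 members (rows, in blocks by role) in the 3 age comparisons, with SE as whiskers and filled points where the adjusted p was under 0.05. The 12 filled orange points are the rises at 20 months, and 33 of the 35 green points (28 against 20 months) lie left of 0.

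Other genes of the pathway were followed as lists by role. Over all tested genes, 9.42% rose and 7.13% fell at 20 months, and 7.53% rose and 6.24% fell at 28 months. Of 19 transcription regulators and known PPAR targets, 8 rose and 0 fell at 20 months, and 4 rose and 1 fell at 28 months. Pdk4, the kinase that turns pyruvate dehydrogenase off when fat is burnt, rose by 2.67 ± 0.34 at 20 months (limma adjusted p = 0.000288), from 3345 to 6353 normalized counts at 2 months to 18994 to 39564. Esrrb, an estrogen-related receptor, rose by 1.31 ± 0.25 (limma adjusted p = 0.00446). At 28 months the largest of the 4 rises were those of Esrrb (1.28), its relative Esrrg (1.20) and the corepressor Nrip1 (1.11). None of the 19 was called between 20 and 28 months.

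Among 16 other mitochondrial enzymes, 3 rose at 20 months: the ketone body enzyme Bdh1 (1.76 ± 0.20), the isomerase Ech1 (0.61 ± 0.13) and the thiolase Acat1 (0.28 ± 0.09). At 28 months Bdh1 (1.58) and Ech1 (0.44) rose and Pcca (−0.25), of propionyl-CoA carboxylation, fell. Of 16 other genes of uptake, activation and thioester cleavage, 3 rose at 20 months, among them Acss1 (0.53) and Acsl6 (0.44), and Fabp5 (−0.56) fell. At 28 months Acsl6 and Acss1 rose and Acsl3 fell. Of 15 tested peroxisomal genes, 1 rose and 1 fell at each of these ages, and the one that fell was the transporter Abcd2 (−0.52 and −0.43).

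Genes that make fatty acids went the other way. Of 15 genes of synthesis and desaturation, 10 fell at 20 months and 8 at 28 months, and 0 rose at either age. At 20 months the elongase Elovl6 changed by −3.61 ± 0.49, fatty acid synthase Fasn by −3.22 ± 0.39 and the desaturase Scd1 by −2.33 ± 0.27, and at 28 months by −1.81, −1.81 and −1.54. Of 15 genes of triglyceride synthesis and other droplet proteins, 4 fell at 20 months, among them Agpat2 (−1.21), Hilpda (−1.10) and the lipase inhibitor G0s2 (−0.85), and Agpat2 (−1.34) also fell at 28 months. None of the genes on these lists was called between 20 and 28 months.

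Markers of other cells moved in the same comparisons. Of 11 adipocyte markers, 7 fell at 20 months and 2 at 28 months, and their summed normalized count was 7992 to 12308 at 2 months, 5085 to 5712 at 20 months and 4922 to 7302 at 28 months. Fat cells also express synthesis and droplet genes, and the part of the fat cell markers in the lower levels of those genes was not tested.

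Of 10 endothelial markers, 0 were called at 20 months, with sums of 14413 to 19304 at 2 months and 14452 to 16012 at 20 months, and 1 (Vwf) rose at 28 months. Of 7 fibroblast markers, 3 collagens fell at both ages (sums of 52606 to 107850, 23202 to 26053 and 23350 to 31572). Of 9 macrophage markers tested, 3 fell at 20 months and 0 at 28 months (sums of 3255 to 4786, 2909 to 3000 and 3161 to 4392). Of 5 thermogenic adipocyte markers, 0 were called. The summed red blood cell genes (3 in the table, 1 tested and not called) stood at 831 in 2-m library 1 and at 99.6 and 150 in the other young libraries, at 204 to 296 at 20 months and at 323 to 366 at 28 months.

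Fibre type markers moved with age too. All 7 slow fibre markers rose at both ages, with a median log2 fold change of 2.65 at 20 months and 2.74 at 28 months. Their sums were 12890 to 115123 at 2 months, 163266 to 289784 at 20 months and 202374 to 255812 at 28 months, and the ranges at 20 and 28 months overlapped. Myh2, the myosin of oxidative fast fibres, rose at both ages (0.80 and 0.70). Of 9 markers of glycolytic fast fibres, 2 fell at 20 months and 4 at 28 months. The part of fibre type in the differences at 20 months was not tested. Without 2-m library 2, the young library with the high slow fibre sum, 16 members rose, beside 1175 genes over all. Without 2-m library 1 or 3, which had lower sums, 5 and 9 members rose, beside 839 and 994 genes over all.

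**Figure D4:**
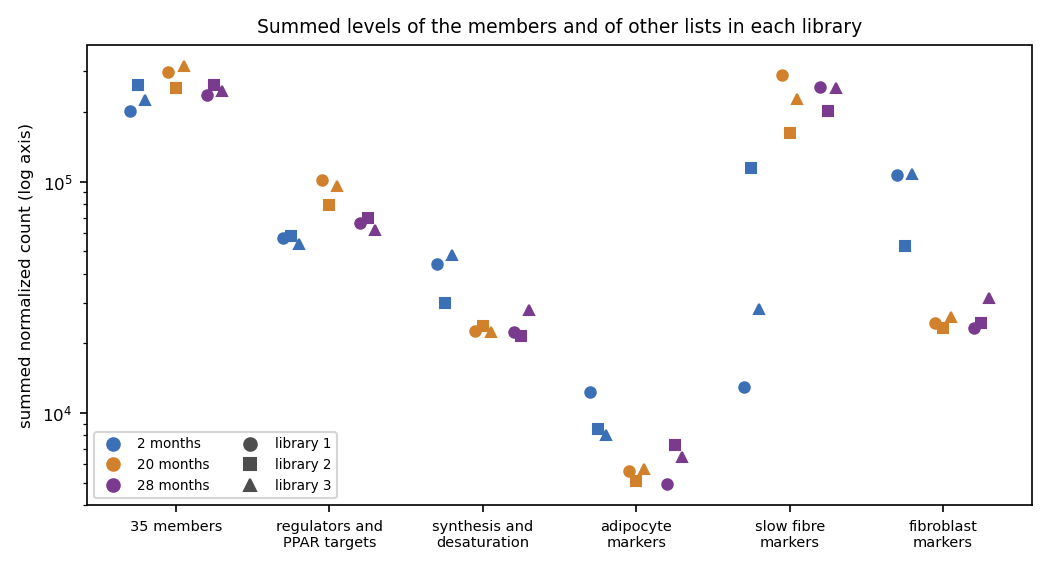
Summed normalized count (y axis, log scale) of the 35 members, of regulators and PPAR targets, of synthesis and desaturation genes, and of adipocyte, slow fibre and fibroblast markers in each of the 9 libraries. Colours are ages and shapes library numbers; slow fibre sums overlap between 20 and 28 months, and the 2-m library 2 lies apart from the other young libraries for slow fibre and fibroblast markers.

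The promoters of the members were examined for sequence and for captured methylated DNA. Of the 35 members, 29 had a window in the RefSeq-derived table (GRCm38.p6, 250 bases before to 50 after the start). PPARs bind DNA as partners of the retinoid X receptor at a direct repeat of AGGTCA with 1 base between the copies, AGGTCANAGGTCA. This element was searched on both strands with up to 2 mismatches in its fixed bases. Matches were found for 5 of the 29 members (17.2%), namely Cd36, Echs1, Etfa, Plin2 and Ucp3, each with 2 mismatches, and for 4.44% of all 26794 genes with a window. Of these, Cd36 and Ucp3 rose, Echs1 fell, and Etfa and Plin2 were not called. The element of the estrogen-related receptors, TCAAGGTCA, which contains the repeat unit AGGTCA, was found exactly in 0 of the 29 members and in 0.47% of all genes. These are matches of letters in a short window and say nothing of binding.

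MBD-seq counts rise with the density of methylated CpG sites, and most member promoters had low values. Over bins within 1000 bases before to 500 after the start, the median of the 29 members in muscle was 5.46, 5.05 and 8.29 normalized counts per 500-base bin at 2, 20 and 28 months, below that of all genes (10.2, 10.4 and 12.3). Each tissue and age was 1 column from a pool of 3 mice. The muscle pools were captured in 2 rounds, the columns do not say which round they hold, and no replicate check and no test were made. The median log2 ratio of the members was −0.09 for 20 against 2 months (all genes −0.06) and 0.67 for 28 against 2 months, where 20 of 29 members lay above 0 (all genes 0.16, with 57.5% above 0). The members' median of 0.67 depended on the window: in bins at the start itself it was 0.42, beside 0.45 for all genes. For single members the sign followed the level at 2 months. The members highest then (Acsl1, Lipe, Mgll, Plin5, Ucp3, Acacb and Mlycd, 19.1 to 31.6) all lay below 0. Of the rest, only Acads (−0.05) and Acot2 (−0.75) did. The median of all muscle bins rose from 7.28 to 13.4 between these ages. The paper reports gains in weakly and losses in highly methylated regions. Whether members gained more than genes of like starting level was not tested. In T cells the members' medians of the log2 ratio were 0.25 for 20 against 2 months and 0.30 for 28 against 2 months. Those of all genes were 0.15 and 0.19.

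The members with the largest rises in RNA at 20 months had unlike promoter signals. Ucp3, with 5 CpG sites in its 300-base window, had 31.2, 19.6 and 25.2 normalized counts per bin at 2, 20 and 28 months in muscle. The exact 95% Poisson intervals were 26.2 to 36.8 at 2 months and 15.8 to 23.98 at 20 months, which cover counting error only. Acot2 had 8.19, 6.74 and 4.46, Fabp3 5.69, 7.58 and 8.76, and Plin4 5.69, 5.05 and 12.4. Cd36, with 3 CpG sites, had 2.96, 3.16 and 6.21 in muscle and 15.7, 8.52 and 9.58 in T cells. Apart from these, Hadha and Hadhb, whose windows fall in the same bins, had 1.14, 0.210 and 3.82, from 5, 1 and 24 reads.

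**Figure D5:**
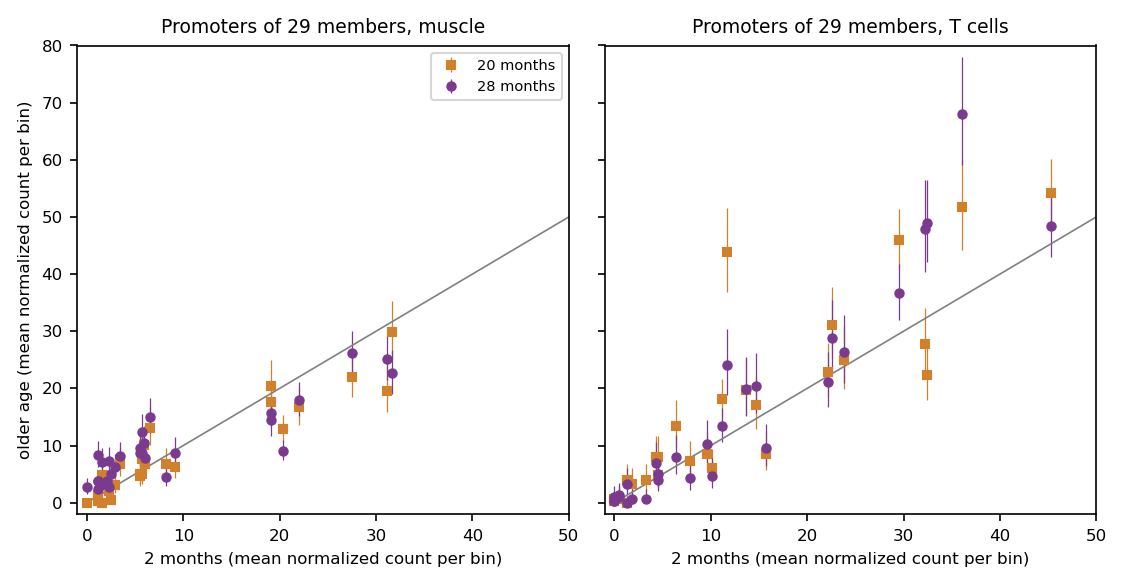
Mean normalized MBD-seq count per 500-base bin at the promoters of 29 members at 2 months (x axis) and at 20 (squares) or 28 months (circles, y axis) in muscle (left) and T cells (right), with exact 95% Poisson intervals as whiskers and the line of equal values. In muscle most members lie at low values, and 20 of 29 had a log2 ratio above 0 at 28 months.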

How the data were processed

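The 35 genes, the lists of other genes and the tests were chosen with earlier results of these data known. The authors trimmed reads with Trim Galore, aligned RNA-seq reads to mm10 with Hisat2 (the submitters' processing notes name TopHat) and MBD-seq reads with Bowtie2, counted them per refSeq gene with htseq-count (intersection-strict) or per 500-base bin with bedtools, and deposited both tables as signal values, counts divided by DESeq2 size factors. All nonzero deposited values (100%) were whole reads within 0.001 reads after recovery of the step of 1 read. Rows that name no gene (5, holding 37.9% to 47.7% of the table's sum per library) were left out, and 0 per-sample columns were unused. MBD-seq columns of muscle do not name the round of capture.

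All 9 RNA-seq libraries entered 1 limma-trend model (limma 3.58.1, R 4.3.3) on log2(normalized count + 1), a scale that understates changes of low genes, with age as the only term, over the 13178 genes with a mean of at least 10, and Benjamini-Hochberg adjustment over them with a threshold of 0.05. Log2 fold changes are on this scale. The authors' own rule (fold change over 2 and unadjusted p under 0.05) was applied as well. For each member an exact permutation test (two-sided, difference of means) was run as well. Members called in any comparison are given in every library, the others by ranges, log2 fold changes or counts. Of each other list at most the 3 genes with the largest change among those called are named, beside single markers named after their values were seen (Vwf, Myh2 and Acot1). Some genes of these lists are not reported here. Alternatives were other pseudocounts, filters, scalings and fits, edgeR 4.0.16 and DESeq2 1.42.0 on recovered reads, and leaving out libraries. The scripts were tested on simulated data. Lengths and promoters came from RefSeq (GRCm38.p6, the build called mm10).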

Additional observations from a re-analysis of the deposited data

Results flagged for a closer look

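At member promoters the median log2 MBD-seq ratio of 20 against 2 months was −0.0938 in muscle and 0.252 in T cells, opposite in sign. The muscle value reversed in sign, to 0.00054, after scaling to the same sum, a setting that was not applied to the T-cell value. Each was 1 pool per age and the difference was not tested. Beside it, the medians over all genes were −0.06 and 0.15.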

How the results depend on the processing

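Of the 16 calls of single members, tried under 21 other settings each, 245 of 336 trials kept the direction and the threshold, 91 kept the direction only and 0 reversed. The rises of Ucp3 and Plin4 at 20 months passed in all 21, and those of Acot2, Cd36 and Fabp3 failed only in the 6 libraries numbered 1 and 2, a setting chosen after seeing the data. The cause was not tested, except that this setting has fewer samples. Members called at 20 months (12) numbered 5 after scaling to the same sum, 2 in the libraries numbered 1 and 2, and 5 to 16 when 1 library was left out. The 0 falls became 1 (Echs1) with a mean of at least 50, quantile normalization, the term for the libraries numbered 3 or DESeq2, without 20-m library 3 and without 28-m library 2, and 1 (Plin2) in the 6 libraries compared and without 28-m library 1. Members called at 28 months (2) numbered 0 without the filter on low values, 0 after scaling to the same sum, 4 with the term for the libraries numbered 3, 1 in the 6 libraries compared, 0 by edgeR, 0 in the libraries numbered 1 and 2, and 0 to 2 when 1 library was left out. Between 20 and 28 months (2), they numbered 1 after scaling to the same sum, 1 after quantile normalization, 5 by DESeq2, 0 in the libraries numbered 1 and 2, and 0 to 3 when 1 library was left out. Over all genes the calls at 20 months (2181) numbered 586 after scaling to the same sum, 1117 in the libraries numbered 1 and 2, and 1081 to 2310 with 1 library left out. Those at 28 months (1814) numbered 554, 716, and 963 to 1913 in the same order. Those between 20 and 28 months (50) numbered 24, 11 and 14 to 89, and 103 with the term for the libraries numbered 3, 76 in the 6 libraries compared and 225 by DESeq2.

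The replicate numbers were not used as pairs, since the deviations from the age means, over genes, had a Pearson's r above 0.1 for all 3 pairs of ages only among libraries numbered 3 (0.109, 0.150 and 0.161). They ran from −0.00888 to 0.0689 among libraries numbered 1 and from −0.0401 to 0.0998 among those numbered 2. With the replicate block, 16 members were called at 20 months (14 rose, and Echs1 and Plin2 fell), 4 at 28 months and 3 between 20 and 28 months. Over all genes the block gave 3000, 2529 and 138 calls in the same order.

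The median MBD-seq ratio of member promoters at 20 months (−0.09) was −0.31 in bins at the start and reversed to 0.00054 after scaling to the same sum (all genes −0.0013 and 0.032). At 28 months (0.67) it was 0.42, 1.10 and, with a pseudocount of 5, 0.37 (all genes 0.45, 0.59 and 0.12). Few reads per bin limit these values.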
